A study of Mus musculus with 2 samples.

Results

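The enzymes that write, maintain and remove DNA methylation were examined in mouse embryonic stem (ES) cells depleted of the H3K4 demethylase KDM5B. The group was fixed by name as the DNA methyltransferase genes *Dnmt1*, *Dnmt3a*, *Dnmt3b* and *Dnmt3l*, the dioxygenase genes *Tet1*, *Tet2* and *Tet3*, the maintenance cofactor *Uhrf1* and the DNA glycosylase *Tdg*. All 9 symbols were found among the 21935 in the expression tables, and all 9 had an RPKM (read density, scaled to transcript length and library size) above 1 in at least 1 library. Where a symbol had several transcript entries, the one whose RPKM averaged highest over both libraries represents the gene. The study set out to learn what KDM5B does to H3K4 methylation and gene expression in ES cells, and its RNA-Seq compared R1 ES cells carrying a short hairpin RNA against luciferase (shLuc, the control) with R1 ES cells carrying one against *Kdm5b* (shKdm5b). Both lines had been grown with LIF, the cytokine that sustains self-renewal, on irradiated mouse embryonic fibroblasts. They were then held for 72 h without LIF. For such culture the paper names gelatin-coated or low-attachment dishes, and it does not say which served for the RNA-Seq. The hairpins were delivered by lentivirus and transduced cells were selected with puromycin in both lines. PolyA RNA of each line was sequenced as 1 library. There was thus no replicate check and no test, the difference between the hairpins cannot be told apart from that between the libraries, and the intervals given cover counting error only.

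DNA methylation in mammals lies mainly on the cytosine of CpG dinucleotides. DNMT3A and DNMT3B place it on unmethylated DNA, DNMT3L lacks catalytic activity and stimulates both, and DNMT1, brought to newly replicated DNA by UHRF1, copies the pattern onto the daughter strand. The TET enzymes oxidise 5-methylcytosine, TDG excises the more oxidised forms, and base excision repair restores the unmodified cytosine.

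Some transcript differences lay within *Dnmt3b* and *Dnmt3a* rather than between genes, and the sequences concerned are shown here with their CpG dinucleotides in capitals, 5′ to 3′ on the plus strand. Apart from an entry of 4207 bases, whose length these exons do not account for, the deposited *Dnmt3b* entries differ by 3 coding exons. These are exons 11, 22 and 23 of a 24-exon GENCODE transcript on chromosome 2 (GRCm38). The first lies at chr2:153670849-153670908, holds 20 codons and has 5 CpG dinucleotides. The others lie at chr2:153683608-153683677 and chr2:153684359-153684477, have 2 and 4 CpG dinucleotides, and together hold 63 codons, so that neither inclusion nor skipping of either block shifts the reading frame.
Dnmt3b exon 11, 60 bases: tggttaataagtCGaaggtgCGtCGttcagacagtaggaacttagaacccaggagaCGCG
Dnmt3b exon 22, 70 bases: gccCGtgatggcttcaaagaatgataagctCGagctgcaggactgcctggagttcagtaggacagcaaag
Dnmt3b exon 23, 119 bases: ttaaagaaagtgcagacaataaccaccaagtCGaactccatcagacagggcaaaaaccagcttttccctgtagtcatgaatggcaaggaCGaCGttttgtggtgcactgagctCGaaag
The *Dnmt3a* entries begin at different promoters on chromosome 12. For each, the 250 bases before the RefSeq start (GRCm38.p6) are given, chr12:3806730-3806979 for the longer transcript and chr12:3891494-3891743 for the shorter.
Dnmt3a, before the longer transcript: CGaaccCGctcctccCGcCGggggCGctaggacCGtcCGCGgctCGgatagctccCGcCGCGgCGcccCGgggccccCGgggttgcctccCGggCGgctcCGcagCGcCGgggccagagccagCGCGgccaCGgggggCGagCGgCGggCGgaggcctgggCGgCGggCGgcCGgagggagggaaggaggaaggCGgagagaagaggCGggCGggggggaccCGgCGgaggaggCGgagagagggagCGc
Dnmt3a, before the shorter transcript: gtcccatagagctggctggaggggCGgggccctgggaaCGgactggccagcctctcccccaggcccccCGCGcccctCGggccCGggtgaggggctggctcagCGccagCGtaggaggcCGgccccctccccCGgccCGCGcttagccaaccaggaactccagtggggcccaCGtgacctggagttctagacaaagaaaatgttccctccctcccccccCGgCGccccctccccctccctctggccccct
The upstream window held 38 CpG dinucleotides, more than 98.1% of the 32851 RefSeq windows of that length, and the downstream window held 15, more than 72.7% of them. The median window held 6. CpG was counted as the letters CG, which read the same on both strands, and 92.1% of windows hold at least 1.

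The library totals, derived from the deposited RPKM values, lengths and read counts, were 78172700 reads for shLuc and 72702700 for shKdm5b. *Kdm5b* itself went from 104 RPKM (51378 reads) to 3.01 RPKM (1377 reads), or 2.88% of the shLuc level, in the direction the hairpin label gives. Of 11804 genes with an RPKM above 1 in either library, 32.0% were lower and 16.3% higher by more than 1.5-fold in shKdm5b, and the median log2 ratio was -0.21. After TMM scaling the split was 23.2% lower and 24.1% higher. Log2 ratios are of RPKM plus 0.1, shKdm5b over shLuc. They moved with the GC content of the transcript (Spearman's rho -0.53 across 11533 genes, which are not independent replicates), so values corrected for GC content are given beside the results. The ES cell markers included the core pluripotency genes *Pou5f1*, *Sox2* and *Nanog*. Of 8 such markers, 7 were found and all 7 were above 1 RPKM in at least 1 library, with a median log2 ratio of -0.12. Of these, 5 were within 1.5-fold, and *Pou5f1* (619 to 182 RPKM) and *Esrrb* (80.5 to 41.2 RPKM) were lower, *Pou5f1* making up most of the difference in the summed level (1147 RPKM and 687 RPKM). The summed levels of other marker lists were 251 RPKM and 213 RPKM for 5 epiblast genes (2 lower), 2.81 RPKM and 4.60 RPKM for 4 mesoderm genes (1 higher), and 41.6 RPKM and 21.6 RPKM for 4 neural genes (1 higher, 1 lower). The fall in the neural sum was that of *Tubb3* (36.4 to 14.0 RPKM). *Pax6*, *Sox1* and *Nes* had higher values in shKdm5b, and the median log2 ratio of the neural list was 0.33. Of 10 fibroblast markers for the feeder cells, 1 was above 1 RPKM, *Thy1* at 4.08 RPKM and 4.59 RPKM. It made up most of their summed level of 5.50 RPKM and 6.43 RPKM, and *Col1a1* stood at 0.474 RPKM and 0.395 RPKM. *Postn* and *Fap* were at 0 reads in shKdm5b and at 3 reads each in shLuc. Of 6 primitive endoderm markers, 3 were above 1 RPKM and all 3 were lower, with a summed level of 23.3 RPKM and 4.32 RPKM, and fewer cells of a type cannot be told apart from less RNA per cell. After GC correction 1 ES cell marker was higher and 1 lower past 1.5-fold, with *Esrrb* (-0.31) within it. Higher and lower were 1 and 0 in the epiblast list, 1 and 0 in the mesoderm list, and 2 and 1 in the neural list. They were 2 and 0 in the fibroblast list and 0 and 2 in the primitive endoderm list. Of all genes, 19.1% were higher and 17.8% lower. The epiblast median went from -0.43 to 0.20. The part of these cell types in the results below was not tested.

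Of the 9 genes, 5 were lower in shKdm5b by more than 1.5-fold and none was higher, where 32.0% of all genes were lower, 16.3% higher and 48.3% either. *Tet1*, *Dnmt1*, *Tet3*, *Tdg* and *Dnmt3a* made up the 5, and *Dnmt3b*, *Uhrf1*, *Tet2* and *Dnmt3l* stayed within 1.5-fold. The median log2 ratio of the 9 was -0.71, beside -0.21 for all genes, and it was -0.43 after correction for GC content. With the GC correction 2 of the 9 (*Tet1* and *Tdg*) were lower and 1 (*Dnmt3l*) was higher by more than 1.5-fold, where 17.8% and 19.1% of all genes were. TMM scaling gave 3 lower and 1 higher, where 23.2% and 24.1% of all genes were. Correction for both GC content and length left *Tet1* lower and *Dnmt3l* higher, where 16.3% of genes were lower and 15.8% higher. *Tet1* alone was past 2-fold, where 16.5% of all genes were that much lower. None was both past 1.5-fold and called by the exact test of edgeR at an assumed dispersion of 0.04, as were 2.30% of all genes. *Tet1* went uncalled there at 40797 and 18496 reads, so the assumed dispersion limits such calls more than depth does. The absence of calls therefore says little about these genes.

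**Figure D1:**
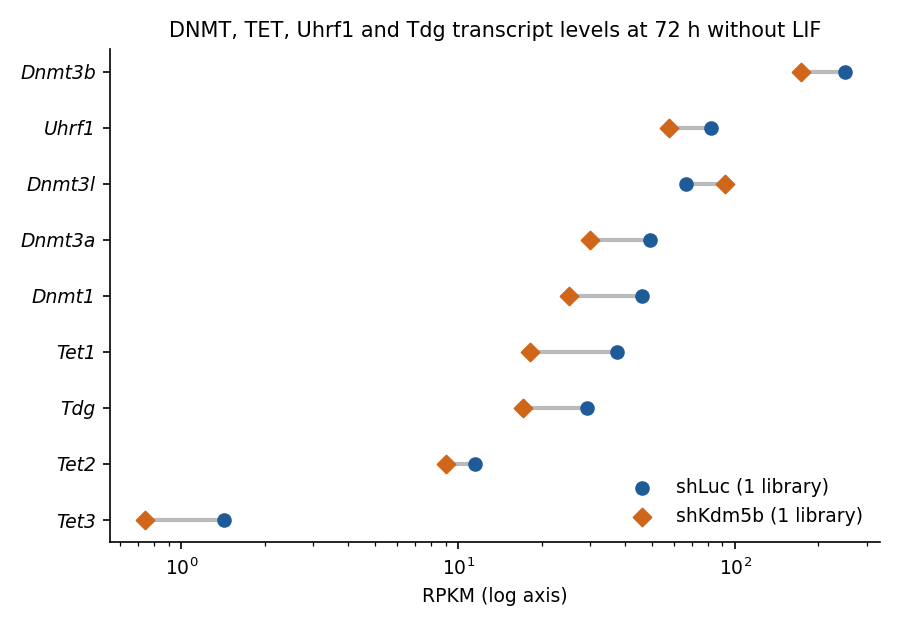
RPKM of the 9 genes in the shLuc and shKdm5b libraries on a log axis, 1 point per library. *Dnmt3b* was highest in both (249 and 173 RPKM) and *Tet3* lowest (1.43 and 0.742 RPKM), and *Dnmt3l* was the single gene with the higher value in shKdm5b, a direction it kept under every scaling tried.

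The genes spanned a wide range of transcript levels per length. In shLuc the order from the top was *Dnmt3b* (249 RPKM), *Uhrf1* (82.0), *Dnmt3l* (66.7), *Dnmt3a* (49.2), *Dnmt1* (45.9), *Tet1* (37.3), *Tdg* (29.1), *Tet2* (11.5) and *Tet3* (1.43). In shKdm5b *Dnmt3l* stood second at 92.2 RPKM, above *Uhrf1* at 57.6 RPKM, and the order of the other genes was as in shLuc. *Dnmt3b* ranked 108th in shLuc and 287th in shKdm5b among the 11804 genes, whereas *Tet3* ranked 10898th and 11355th. With 1 library a group there was no spread between replicates against which neighbours in the order could be compared.

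Both genes of maintenance methylation had lower values in shKdm5b. *Dnmt1*, on chromosome 9, went from 45.9 RPKM (18849 reads) to 25.1 RPKM (9587 reads), a log2 ratio of -0.87 (95% counting interval -0.91 to -0.84) or 1.83-fold lower. Its 4 transcript entries had nearly the same read counts and all gave -0.87, which is no independent check. *Uhrf1*, which binds hemimethylated CpG sites, went from 82.0 RPKM (21814 reads) to 57.6 RPKM (14240 reads), a log2 ratio of -0.51 (-0.54 to -0.48), which is within 1.5-fold. The ratio of *Uhrf1* to *Dnmt1* RPKM was 1.79 in shLuc and 2.29 in shKdm5b. The GC-corrected log2 ratios were -0.43 for *Dnmt1* and -0.05 for *Uhrf1*, both within 1.5-fold. At their GC contents of 53.1% and 53.3%, 43.9% of genes within 1 percentage point were lower by more than 1.5-fold in either case.

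The genes of de novo methylation differed in direction. *Dnmt3b*, the most abundant, went from 249 RPKM (80363 reads) to 173 RPKM (51800 reads), a log2 ratio of -0.53 (-0.54 to -0.51), and the GC-corrected value was -0.07. *Dnmt3a* went from 49.2 RPKM (37434 reads) to 30.0 RPKM (21230 reads), a log2 ratio of -0.71 (-0.74 to -0.69) or 1.64-fold lower, with a GC-corrected value of -0.35. The catalytic genes were thus both lower, past 1.5-fold for *Dnmt3a* alone and for neither after the GC correction, and correcting for transcript length as well put *Dnmt3a* at -0.03 and *Dnmt3b* at 0.09. *Dnmt3l* had the opposite direction. It went from 66.7 RPKM (8698 reads) to 92.2 RPKM (11184 reads), a log2 ratio of 0.47 (0.43 to 0.51) or 1.38-fold higher. Both of its entries gave 0.47, at nearly the same read counts, which is no independent check. Of 1258 genes within 1 percentage point of its GC content (53.5%), the median log2 ratio was -0.50 and 6.92% were higher by more than 1.5-fold. The GC-corrected value of *Dnmt3l* was 0.94, past 1.5-fold, as were those after TMM scaling and after centring on the median, where 22.1% of all genes were higher. Its RPKM relative to the sum of *Dnmt3a* and *Dnmt3b* was 0.224 in shLuc and 0.455 in shKdm5b, and *Dnmt3b* relative to *Dnmt3a* was 5.06 and 5.75.

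*Dnmt3a* is transcribed from alternative promoters, and the shorter transcript encodes a protein that lacks the N-terminal part of the longer one. The longer entry (9735 bases) gave the values above. The shorter entry (5424 bases) stood at 49.5 RPKM (20991 reads) in shLuc and 21.9 RPKM (8641 reads) in shKdm5b, a log2 ratio of -1.17 (-1.21 to -1.14) or 2.26-fold lower. In shLuc the entries were thus at nearly the same RPKM, and in shKdm5b the shorter was the lower one. In GENCODE the longer transcript contains 5307 bases (97.8%) of the shorter, so the reads of the shorter entry come mostly from sequence that both transcripts hold and do not measure the shorter transcript alone. The longer entry held 16443 more reads than the shorter in shLuc and 12589 more in shKdm5b, a log2 ratio of -0.28 (-0.31 to -0.25). Sequence of the longer transcript alone comprises 889 bases in 6 upstream exons, with 64.9% GC, and 3489 noncoding bases at the 3′ end, with 50.3% GC. Reads from the CpG-rich upstream start and from the 3′ end could not be separated, and 3′ noncoding bases make up 79.7% of that sequence. The difference is also net of 117 bases found in the shorter transcript alone.

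*Dnmt3b* is known for alternative splicing, and forms that skip exons in the 3′ part of the coding sequence lack part of the catalytic domain. Its 5 entries had log2 ratios between -0.57 and -0.53 as whole transcripts. Subtracting the reads of entries that differ by the exons shown above isolated them. Exon 11 (60 bases) had 824 reads in shLuc and 1278 in shKdm5b, a log2 ratio of 0.74 (0.61 to 0.87), whereas the rest of the transcript had -0.57. Exons 22 and 23 (70 and 119 bases) together had 1441 reads in shLuc and 312 in shKdm5b, a log2 ratio of -2.10 (-2.28 to -1.93), whereas the rest had -0.55. These blocks of 1 gene thus had log2 ratios of opposite sign. For each block a second pair of entries gave identical read differences, which are the same reads counted again and no independent check. Relative to the rest of the transcript, reads per base went from 72.2% to 178% for exon 11 and from 39.0% to 13.3% for exons 22 and 23. A density above 100% shows that these values are no measure of the share of transcripts that include an exon. The rule for counting reads at exon edges was not given, and the aligner used does not split reads across junctions. What raised the density above 100% was not tested. The GC content was 50% for exon 11 and 48.7% for exons 22 and 23, against 53.2% and 53.4% for the rest.

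The same subtraction could be made for 53 segments of 38 genes with at least 200 reads, segments of 1 gene being partly overlapping. The difference in log2 ratio between a segment and the rest of its transcript had a median of -0.43 and quartiles of -1.22 and 0.15. *Dnmt3b* exon 11, at 1.30, had the highest value of the 53. Exons 22 and 23, at -1.55, were among the 5 lowest. These segments were examined after the values had been seen and are given as a description.

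**Figure D2:**
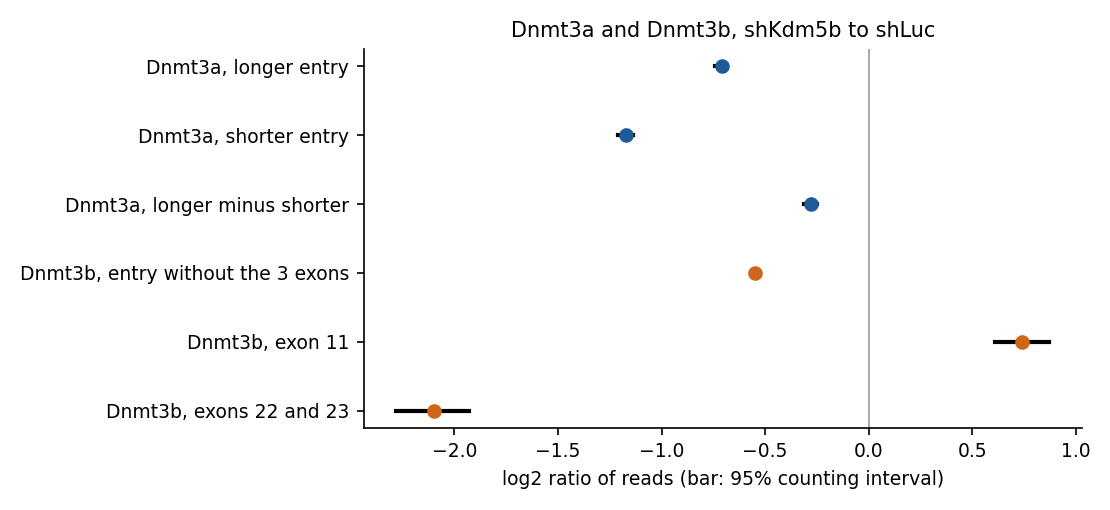
Log2 ratio of reads, shKdm5b over shLuc, for the *Dnmt3a* entries and the reads by which they differ, and for *Dnmt3b* without the 3 exons and the exons themselves, with 95% counting intervals as bars. The shorter *Dnmt3a* entry lay at -1.17 and the longer at -0.71, and *Dnmt3b* exon 11 lay at 0.74 with exons 22 and 23 at -2.10.

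On the demethylation side, *Tet1* had the largest difference of the 9 genes. This gene, on chromosome 10, encodes the enzyme that, with TET2, makes up most TET activity of ES cells. It went from 37.3 RPKM (40797 reads) to 18.2 RPKM (18496 reads), a log2 ratio of -1.03 (-1.06 to -1.01) or 2.05-fold lower. The GC content of its transcript is 43.6%, and of 955 genes within 1 percentage point the median log2 ratio was 0.25, with 8.27% lower by more than 1.5-fold. The GC correction therefore moved *Tet1* further down, to -1.31, and correction for GC content and length gave -0.89. *Tet1* was lower past the threshold in 15 of 16 ways of treating the data. Under the 15 that called it, between 16.3% and 32.7% of all genes were lower. The exact test at a dispersion of 0.04 did not call it, and called 1.41% of all genes lower.

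*Tet2*, which lacks the CXXC DNA-binding domain of TET1, went from 11.5 RPKM (8227 reads) to 9.04 RPKM (6031 reads), a log2 ratio of -0.34 (-0.39 to -0.30) within 1.5-fold. *Tet3*, the TET enzyme known from the zygote and from differentiated cells, was close to the RPKM minimum of 1, at 1.43 RPKM (1215 reads) and 0.742 RPKM (588 reads). Its log2 ratio was -0.86 (-1.09 to -0.80, computed without the added 0.1), and the GC-corrected value was -0.43. *Tet1* thus made up 74.3% of the summed *Tet* RPKM in shLuc and 65.0% in shKdm5b. The sum of the 3 genes was 50.2 RPKM and 28.0 RPKM, and that of *Dnmt1*, *Dnmt3a* and *Dnmt3b* was 344 RPKM and 228 RPKM. The ratio of these sums, DNMT over TET, was 6.85 in shLuc and 8.14 in shKdm5b.

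*Tdg*, which also lies on chromosome 10, went from 29.1 RPKM (7090 reads) to 17.1 RPKM (3883 reads), a log2 ratio of -0.76 (-0.82 to -0.71) or 1.70-fold lower. Of 1194 genes within 1 percentage point of its GC content (48.3%), 22.2% were lower by more than 1.5-fold. The GC-corrected value was -0.68, past 1.5-fold, and correction for GC content and length gave -0.58, just short of it.

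**Figure D3:**
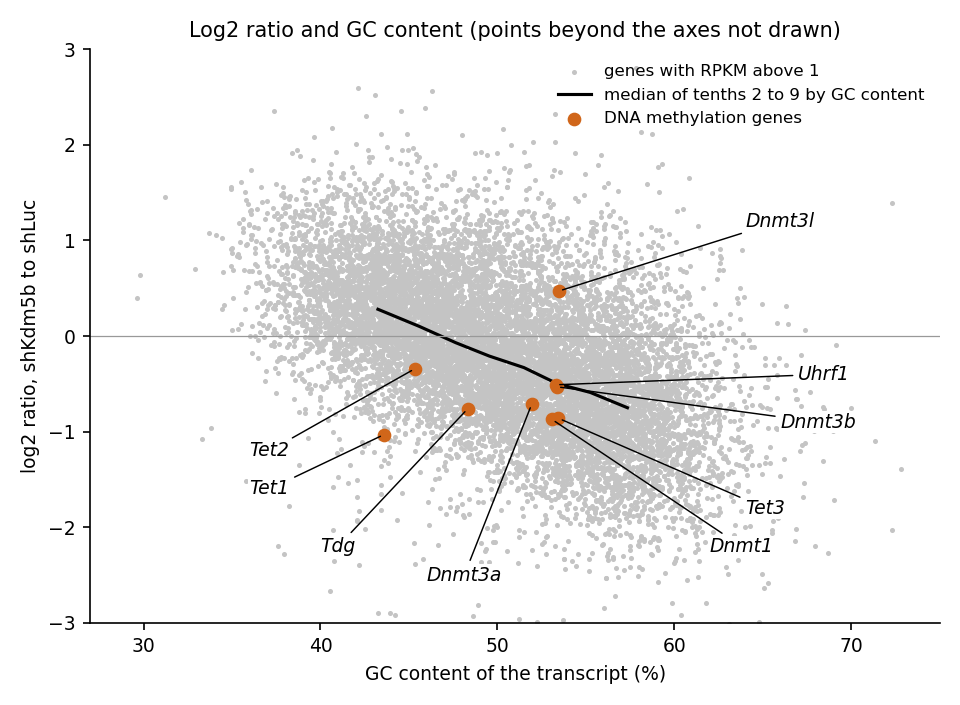
Log2 ratio, shKdm5b over shLuc, against the GC content of the transcript for genes with an RPKM above 1 (grey), with the running median (line) and the 9 genes (orange). *Tet1* (-1.03 at 43.6% GC) lies below the line and *Dnmt3l* (0.47 at 53.5% GC) above it, whereas *Dnmt3b* and *Uhrf1* lie near it.

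**Figure D4:**
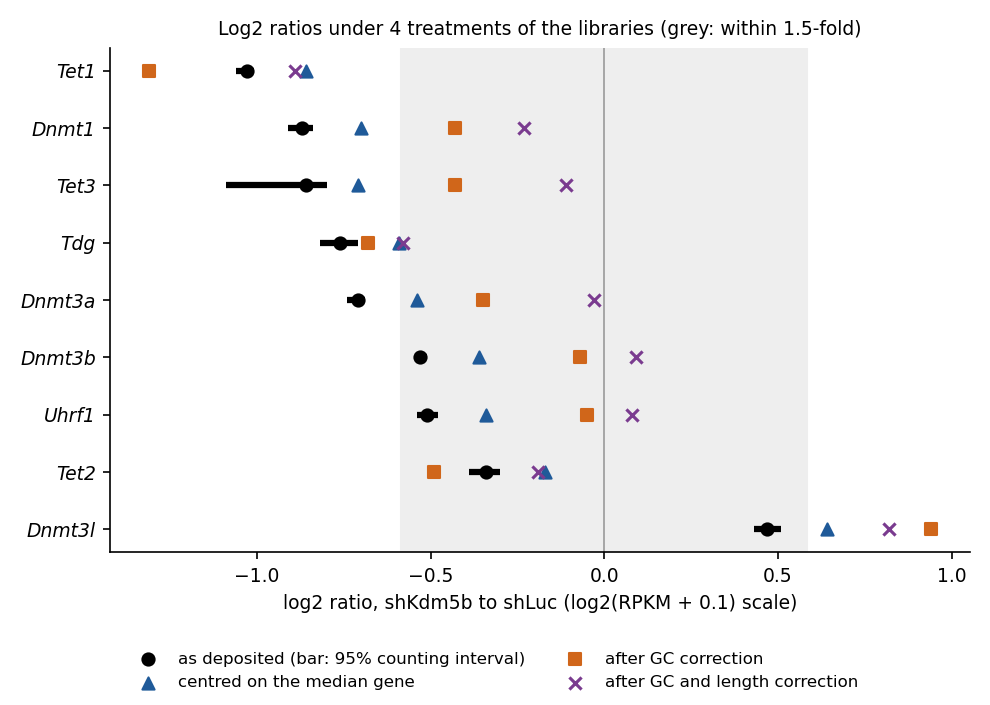
Log2 ratio of the 9 genes, shKdm5b over shLuc, as deposited and after centring, GC correction and correction for GC content and length, with the range within 1.5-fold in grey. *Tet1* stayed below that range (-1.31 to -0.86), *Dnmt3l* kept its direction (0.47 to 0.94), and *Dnmt3b* and *Uhrf1* changed sign with correction for GC content and length (0.09 and 0.08).

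Genes that work with these enzymes were taken from 8 lists of known function and, with the homologue *Trdmt1*, numbered 73, of which 68 were above 1 RPKM. By more than 1.5-fold, 12 of these were higher (17.6%) and 22 lower (32.4%), shares near the 16.3% and 32.0% of all genes. After TMM scaling 13 were higher and 13 lower. Among 7 partners of maintenance methylation, 1 was higher (14.3%) and 2 were lower (28.6%), again near the shares of all genes. *Pcna*, the replication clamp that brings DNMT1 to new DNA and has near-identical pseudogene copies whose reads may be mixed with its own, went from 163 to 261 RPKM (log2 ratio 0.68), and *Cdca7*, which recruits the remodeller HELLS, from 75.2 to 41.0 RPKM (-0.87). *Hdac1*, a histone deacetylase that binds DNMT1, went from 36.5 to 22.4 RPKM (-0.70). After GC correction *Pcna* (0.52) and *Hdac1* (-0.50) were within 1.5-fold. *Hells* itself, named after its values were seen, stood at 118 RPKM in both libraries (0.00). Its GC-corrected value was -0.61, lower past 1.5-fold, where 17.8% of all genes were. *Trdmt1*, a DNMT homologue that methylates tRNA, stood at 4.44 and 4.51 RPKM (0.02, interval -0.11 to 0.16).

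Of 15 base excision repair and deamination genes, 14 were above 1 RPKM, with 1 higher (7.14%) and 4 lower (28.6%), where 16.3% and 32.0% of all genes were. *Gadd45a*, a stress-induced protein reported to bring repair enzymes to methylated DNA, went from 45.3 to 93.4 RPKM (log2 ratio 1.04, GC-corrected 1.23). The glycosylase genes *Neil1* (2.39 to 0.940 RPKM, -1.26), *Ung* (46.7 to 27.5 RPKM, -0.76) and *Neil2* (4.92 to 3.23 RPKM, -0.59), and *Parp1* (125 to 82.5 RPKM, -0.60), which senses strand breaks, were lower. After GC correction none of this list was lower past 1.5-fold and 3 were higher, where 17.8% and 19.1% of all genes were.

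The supply of the methyl donor S-adenosylmethionine had the lowest median of the lists. Of 12 genes, 9 were lower (75%) and 1 was higher (8.33%), where 32.0% and 16.3% of all genes were, and the median log2 ratio was -0.81. After GC correction 6 were lower and 1 was higher, where 17.8% and 19.1% of all genes were. Among those that were lower were the folate-cycle enzyme genes *Mthfd2* (37.6 to 15.4 RPKM, -1.28), *Shmt2* (77.5 to 35.7 RPKM, -1.12) and *Shmt1* (50.3 to 24.1 RPKM, -1.06). *Mat2a*, the S-adenosylmethionine synthetase, named after its values were seen, went from 149 to 73.6 RPKM (-1.02, GC-corrected -1.21), while *Mat2b*, its regulatory subunit, went from 52.4 to 78.9 RPKM (0.59). After GC correction *Shmt2* (-0.39) and *Mat2b* (0.53) were within 1.5-fold. Of 5 genes for TET cofactors and partners, 1 was lower (20%, where 32.0% of all genes were). This was *Idh2*, the mitochondrial isocitrate dehydrogenase (44.2 to 29.1 RPKM, -0.60), and its GC-corrected value was 0.00.

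Among 9 factors that guide or guard DNA methylation, 2 were higher (22.2%) and 3 lower (33.3%), where 16.3% and 32.0% of all genes were. *Dppa3*, which protects methylation in the zygote and inhibits UHRF1, went from 2.38 RPKM (152 reads) to 6.12 RPKM (364 reads), a log2 ratio of 1.33. *Mphosph8*, a reader of methylated H3K9, went from 54.2 to 88.9 RPKM (0.71). *Trim28*, the corepressor that keeps imprinted regions methylated, went from 476 to 145 RPKM (-1.72, GC-corrected -0.88). *Ehmt2*, an H3K9 methyltransferase, went from 41.0 to 16.3 RPKM (-1.33), and *Nsd1*, whose H3K36 methylation guides DNMT3A, went from 23.4 to 11.2 RPKM (-1.05). After GC correction *Mphosph8* (0.38) and *Ehmt2* (-0.48) were within 1.5-fold.

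The last list held germline genes whose promoters are known to be silenced by DNA methylation in somatic cells. Of 12 such genes, 10 were above 1 RPKM, of which 6 were higher past 1.5-fold and none lower, where 16.3% and 32.0% of all genes were. The other 4 were within 1.5-fold, among them *Rpl10l* at -0.20, named after its values were seen, whose reads may be mixed with those of *Rpl10*. The median was 0.76. After GC correction it was 0.42, with 5 higher and none lower where 19.1% and 17.8% of all genes were, and *Dazl* (-0.02), *Sycp1* (-0.41), *Hormad1* (-0.23) and *Slc25a31* (-0.07), also named after their values were seen, were then below 0. *Sycp3*, a component of the meiotic chromosome axis, went from 9.70 RPKM (850 reads) to 49.8 RPKM (4062 reads), a log2 ratio of 2.35. The RNA helicase gene *Ddx4* (5.00 to 14.6 RPKM, 1.53), *Taf7l* (1.28 to 3.49 RPKM, 1.38) and *Mael* (6.29 to 12.1 RPKM, 0.93) followed. DNA methylation itself was not among the measurements analysed here.

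**Figure D5:**
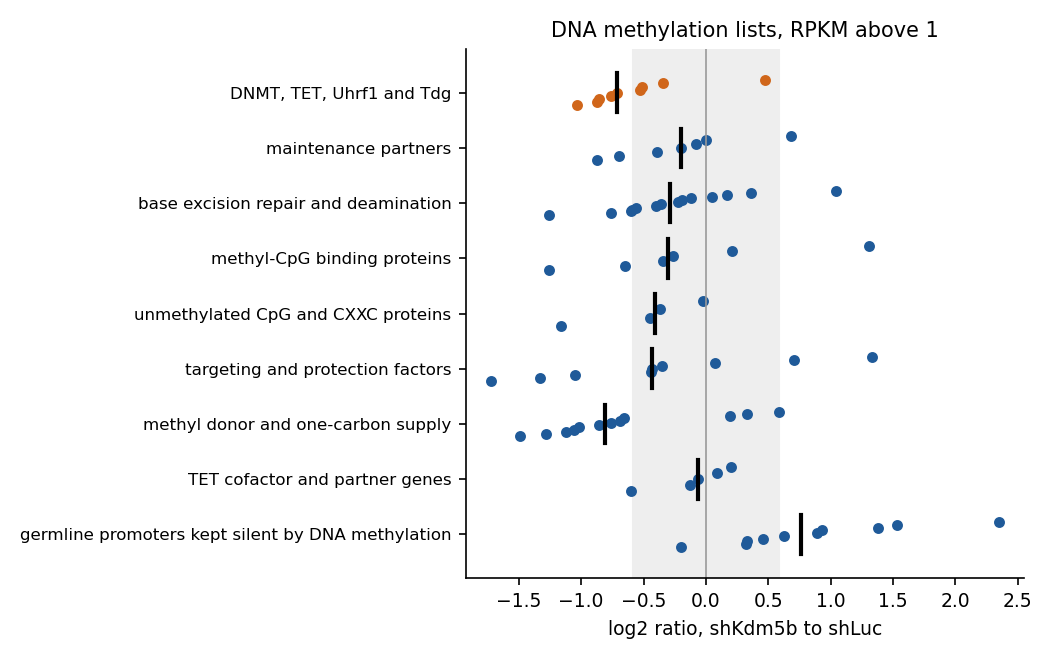
Log2 ratio, shKdm5b over shLuc, of each gene with an RPKM above 1 in the group of 9 (orange) and in the 8 lists (blue), with the median as a line and the range within 1.5-fold in grey. The methyl donor list had a median of -0.81 and the germline list of 0.76, and after GC correction these were -0.50 and 0.42.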

How the data were processed

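PolyA RNA of shLuc and shKdm5b R1 ES cells, 1 library each, was sequenced by the authors. The submitters' processing notes name CASAVA 1.0, Bowtie 0.12.7 and the mm8 genome build. The authors deposited, for each of 27405 RefSeq transcript entries, an RPKM value and a read count. The rule for reads at exon edges was not given in the sources used here, and aligned reads were not used. Totals of 78172700 and 72702700 reads, derived from the RPKM values, lengths and read counts, make counting error small for all 9 genes. These genes and the lists were chosen with earlier results of these data known.

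Each symbol was represented by its entry of highest average RPKM. A gene was called higher or lower past 1.5-fold on log2(RPKM + 0.1), with an RPKM above 1 in either library; on this scale changes of low genes are understated. Counting intervals (95%, exact Clopper-Pearson) were computed from the reads, without the added 0.1. Named were all 9 genes, *Kdm5b*, *Trdmt1* and up to 4 of the largest rises and falls past the threshold per list, of which 1 is not reported here. No gene of like pattern was named, since 1 ratio per gene gives no pattern.

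Transcript GC content and exon structure came from GENCODE M21 (GRCm38), matched by RefSeq accession for 97.7% of genes, and promoters from RefSeq, where all 9 symbols matched. No coordinate was converted from mm8. The GC correction subtracted a lowess fit (fraction 0.3). Alternatives were the pseudocount, RPKM minimum, fold threshold, choice of entry, 4 scalings, the GC and length corrections, and the exact test of edgeR 4.0.16 at assumed dispersions of 0 and 0.04 (adjusted p threshold 0.001), which compares libraries and not conditions. Genes called by the exact test also had to pass the 1.5-fold and RPKM thresholds. Scripts ran in R 4.3.3 and Python 3.11.15 with pandas 2.3.3, NumPy 2.4.6, SciPy 1.17.1 and statsmodels 0.14.6, and were tested on simulated data.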

Additional observations from a re-analysis of the deposited data

How the results depend on the processing

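Of the 9 genes, 5 were past 1.5-fold. The number was 3 after GC correction (1 higher, 2 lower), 2 after correction for GC content and length (1 higher, 1 lower), 1 at a 2-fold threshold and 0 with the exact test of edgeR at an assumed dispersion of 0.04, where 2.30% of all genes were called. Of the 73 list genes, 34 were past 1.5-fold. The corresponding numbers were 21 (11 higher, 10 lower), 18 (9 and 9), 17 (6 and 11) and 1 (higher). Of all genes, 48.3% were past 1.5-fold as deposited, and 36.8%, 32.0%, 22.8% and 2.30% were called under these alternatives. For the 9 genes together the median of -0.71 (log2 ratio) became -0.53 with a pseudocount of 1, -0.54 centred on the median of all genes, -0.49 with TMM, -0.48 with median-of-ratios and -0.64 with 75th percentile scaling, -0.77 with the entries summed, -0.43 with GC correction and -0.11 with correction for GC content and length. *Kdm5b*, at -5.07, was at -4.72, -4.91, -4.86, -4.84 and -5.00 under the first 5 of these and at -4.83 with correction for GC content and length. The median of the 9 genes and the ratio of *Kdm5b* stayed negative throughout, whereas the balance of the list genes (12 higher, 22 lower) turned to 14 higher and 13 lower with median-of-ratios scaling and to the counts above with the GC correction and the dispersion of 0.04. All genes turned likewise with median-of-ratios scaling, from 16.3% higher and 32.0% lower to 24.7% and 22.6%. With the GC correction 19.1% of all genes were higher and 17.8% lower. Among single genes, *Dnmt3b* (0.09) and *Uhrf1* (0.08) changed sign with correction for GC content and length, *Tet1* lost its call at the dispersion of 0.04 alone, and *Dnmt3l* was called higher in 5 of 16 treatments. No paired analysis was possible because each group has 1 library, which also means that no replicate could be left out. Depth limited *Tet3* most (588 reads in shKdm5b). Whether the GC relation is technical was not tested.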

Other observations

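Of 7 methyl-CpG binding genes, 6 were above 1 RPKM, with 1 higher and 2 lower past 1.5-fold (16.7% and 33.3%), shares near the 16.3% and 32.0% of all genes. *Mbd2* went from 2.92 RPKM (423 reads) to 7.38 RPKM (992 reads), a log2 ratio of 1.31, and its GC-corrected value was 1.97. *Mbd3*, a NuRD subunit that in mammals does not bind methylated DNA selectively, went from 84.3 RPKM (10477 reads) to 35.2 RPKM (4070 reads), a log2 ratio of -1.26. *Mbd1* went from 3.16 to 1.98 RPKM (-0.65). After GC correction *Mbd3* was at -0.30 and *Mbd1* at -0.32, both within 1.5-fold.

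Of 5 genes for proteins that bind unmethylated CpG through a CXXC domain, 4 were above 1 RPKM and 1 was lower (25%, where 32.0% of all genes were). *Cxxc1*, a subunit of the SET1 H3K4 methyltransferase complexes, went from 15.5 RPKM (3073 reads) to 6.87 RPKM (1267 reads), a log2 ratio of -1.16, and its GC-corrected value was -0.39, within 1.5-fold.

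The promoters of the 9 genes ranged widely in CpG content. In the 250 bases before the start, *Tet2* had 51 CpG dinucleotides, more than 99.9% of windows, and *Dnmt3l* had 3, 4 and 5 at its 3 starts, more than 29.0%, 37.8% and 44.4% of windows. *Tet1* had 15 and *Dnmt3b* 21. No relation between CpG content and the log2 ratio was tested over these 9 genes.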
